A study of Mus musculus with 6 samples.

Results

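The genes described here are the enzymes, regulators and carriers of cholesterol synthesis and of the SREBP2 pathway in mouse hepatocytes. The list holds 31 members, chosen by gene symbol, and 26 of them had a row of their own on the array, among 19130 genes tested. Tm7sf2, Mbtps2, Acat2, Soat1 and Soat2 had no row with a single symbol and were not analysed here. Expression was measured on exon arrays in total RNA from primary hepatocytes of C57BL/6 mice aged 3 months, obtained by perfusing the liver, with no treatment. The 3 wild type samples (WT) were compared with 3 samples from animals labelled SRSF1HKO, a hepatocyte-specific knockout of SRSF1, an SR protein that takes part in the choice of splice sites; 1 array was run per sample. The Cre line, the deleted exons and the time in culture are not stated here. The labels do not say whether samples came from separate animals, so the p-values cover only sample-to-sample spread, part of which may be technical.

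Cholesterol is built from acetyl-CoA through mevalonate, farnesyl diphosphate, squalene and lanosterol. Its enzymes are controlled together by the transcription factor SREBP2, encoded by Srebf2. SREBP2 is made as a membrane protein of the endoplasmic reticulum, where it is bound by the escort protein SCAP. When sterols are scarce SCAP carries it to the Golgi, the proteases encoded by Mbtps1 and Mbtps2 release its active part, and the enzymes of synthesis and sterol uptake are transcribed; when sterols are plentiful INSIG proteins hold SCAP back. The liver is a main site of this synthesis, and it also disposes of cholesterol as bile acids and by export into bile.

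Intensities are PLIER summaries of the probes of 1 transcript unit, so a value depends on RNA amount and on exon choice alike. The deposited array medians ran from 25.6 to 39.8 in wild type and from 18.6 to 28.8 in the knockout, and values below are therefore quantile-normalized between arrays unless the deposited scale is named. Log2 differences are knockout minus wild type on the log2(intensity + 16) scale with their standard error, 3 arrays against 3, and adjusted p-values are Benjamini-Hochberg values from limma over all 19130 genes, with a threshold of 0.05. Knockout replicate 1 stood apart: its deposited Xist intensity was 9.95, against 2122 to 3532 elsewhere, that of the Y-linked Eif2s3y was 130, against 2.27 to 7.78, and its correlation with the other arrays across genes was 0.934 to 0.947, where the other knockout arrays correlated at 0.985 with each other. Which part of a difference goes with the sex of that animal was not tested, and for named genes whose call turns on it the values are given with and without it. The targeted gene Srsf1 had normalized intensities of 517, 510 and 658 across the wild type arrays and 292, 422 and 451 across the knockout arrays, groups that did not overlap, with a difference of -0.53 ± 0.18 (adjusted p = 0.183); on the deposited scale it was -0.95 ± 0.27 (adjusted p = 0.010), and normalized without knockout replicate 1 it was -0.35 ± 0.12 (adjusted p = 0.076). Where the probes of this row lie relative to the deleted exons is not given, which limits it as a check of the labels.

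Of the 26 measured members 1 fell in the knockout, Scap, and none rose; among all genes 1.42% fell and 2.74% rose. At an unadjusted p under 0.05, 5 members were lower and 0 were higher, while 6.38% of all genes were lower and 8.98% higher. The other 25 members, among them Srebf2 itself and the synthesis enzymes Hmgcs1, Sqle and Fdps, did not pass the test. The 95% confidence intervals of all 26 differences lay within 1 log2 unit of 0, from -0.77 to 0.54, and 16 of them lay within 0.5 log2 units. All 26 members read at least 3.18 times the array median in each of the 6 arrays on the deposited scale. That median is low, and it was taken over all 238609 rows, of which 212469 carry no symbol. The dimmest members, Idi1, Pmvk and Ggps1, had standard errors of 0.17, 0.19 and 0.21, and the brightest, Sc5d, had 0.06. Brighter Fdps had 0.18. For the dim members the test was therefore less precise. The median difference of the members was -0.10, beside -0.01 over all genes, and 18 of 26 were below 0, where 51.1% of all genes were.

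**Figure D1:**
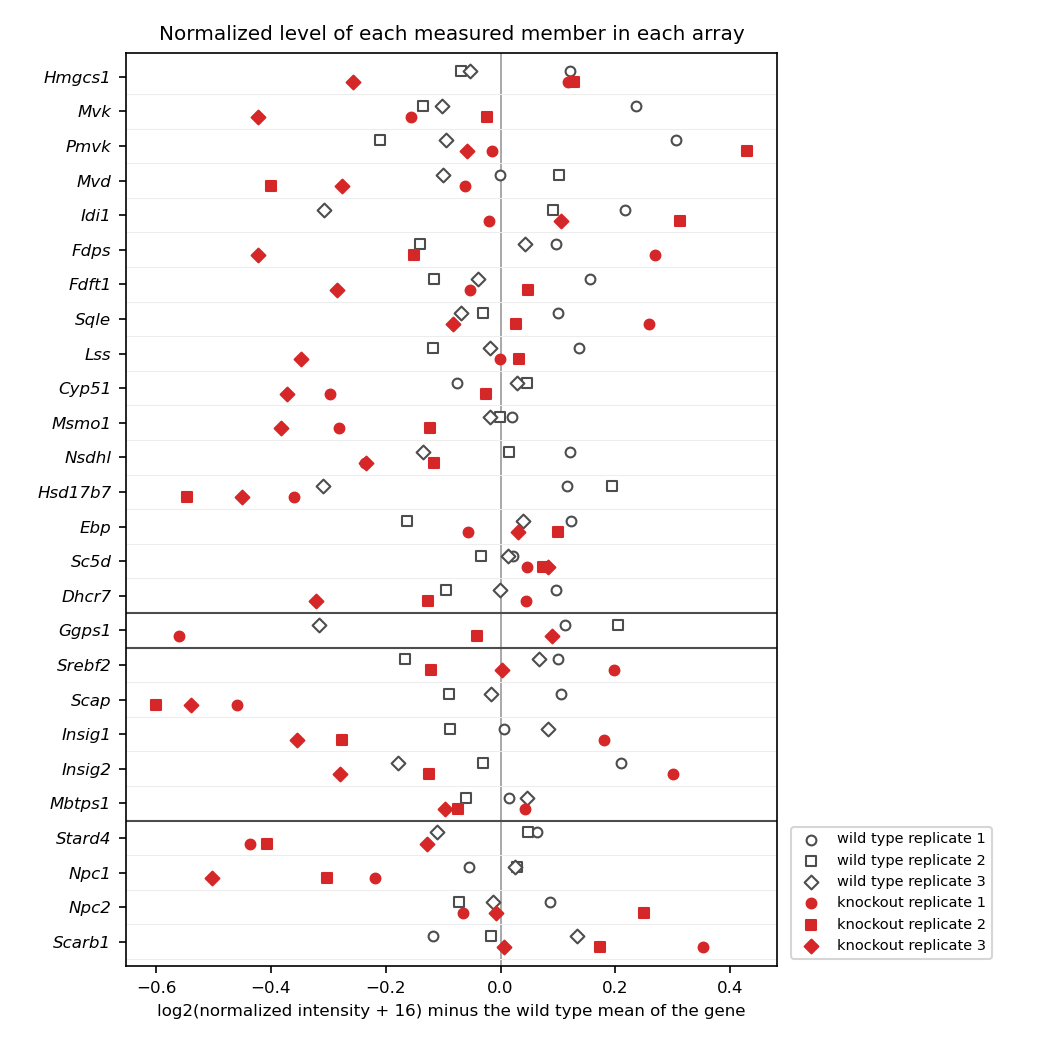
Level of the 26 measured members in each of the 6 arrays, as log2(normalized intensity + 16) minus the wild type mean of the gene; open symbols are wild type and filled symbols knockout arrays, and lines separate synthesis enzymes, the Ggps1 branch, regulators and carriers. The knockout arrays of Scap lie apart from its wild type arrays at the low end, while for Hmgcs1, Sqle, Ebp and Srebf2 the groups are interleaved.

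Scap, the sterol-sensing escort of SREBP2, had normalized intensities of 3747, 3273 and 3443 across the wild type arrays and of 2528, 2290 and 2391 across the knockout arrays. The groups did not overlap, and the lowest wild type array was above the highest knockout array. The mean was 3488 ± 240 (SD, n = 3) in wild type and 2403 ± 119 (SD, n = 3) in the knockout, 68.9% of wild type. The log2 difference was -0.53 ± 0.08 (95% confidence interval -0.72 to -0.34, adjusted p = 0.0081), a 1.45-fold decrease. The decrease was moderate in size: 563 of the 19130 genes had a larger one and 276 had a smaller p. On the deposited scale Scap read 4696, 3913 and 3532 across the wild type arrays and 1688, 2056 and 2082 across the knockout arrays, a difference of -1.05 (adjusted p = 0.0015). Leaving out knockout replicate 1 gave a normalized value of -0.57 (adjusted p = 0.00069).

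The call of Scap depended on how the arrays were put on a common scale and on 1 wild type array. It was lost with each array centred on its median in place of quantile normalization, at -0.73 (adjusted p = 0.329), with no intensity trend in the variances (adjusted p = 0.052) and without wild type replicate 1 (-0.49, adjusted p = 0.058). For Scap alone an exact two-sided permutation test returned 0.1 as its p, and no smaller value is possible with 3 arrays a group. Scap was also set against the median of the other 25 members within the same array, on the deposited values. It lay 1.32, 1.09 and 1.48 log2 units above that median in wild type and 0.83, 0.85 and 1.03 above it in the knockout. The groups did not overlap on that measure either, with a difference of -0.39 and an exact permutation p of 0.1. This measure was added after the values had been seen, for the member with the lowest difference. A gap to the other members was therefore built into the choice, and the measure is no separate support. It also does not tell whether Scap or the other members changed.

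The other regulators did not pass the test. Srebf2, the gene of SREBP2, had normalized intensities of 324, 267 and 316 across the wild type arrays and of 348, 275 and 302 across the knockout arrays. The groups were interleaved, with a difference of 0.03 ± 0.14 (95% confidence interval -0.30 to 0.35, adjusted p = 0.972). These values are of its brightest row, and a dimmer row, given further below, had -0.29. Mbtps1, the site-1 protease that makes the opening cut in SREBP2, read 695, 658 and 710 across the wild type arrays and 708, 652 and 642 across the knockout arrays, a difference of -0.04 ± 0.11 (adjusted p = 0.933). Srebf2 was highest and Mbtps1 lowest in a knockout array, and for both genes the groups overlapped.

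Insig1, an SREBP2 target that retains SCAP in the endoplasmic reticulum, read 2781, 2603 and 2931 across the wild type arrays and 3139, 2282 and 2160 across the knockout arrays. Knockout replicate 1 was the highest of the 6 arrays and the other knockout arrays were the lowest, and the difference was -0.15 ± 0.14 (adjusted p = 0.727). Without knockout replicate 1 it was -0.32 (adjusted p = 0.019). Insig2, a retention protein of the same family, also read highest in knockout replicate 1, with 2381, 2014 and 1817 across the wild type arrays and 2539, 1886 and 1693 across the knockout arrays, with a difference of -0.03 ± 0.16 (adjusted p = 0.966). Without that array it was -0.20 (adjusted p = 0.249). For both INSIG genes the spread within the knockout group was therefore larger than the difference between the groups.

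**Figure D2:**
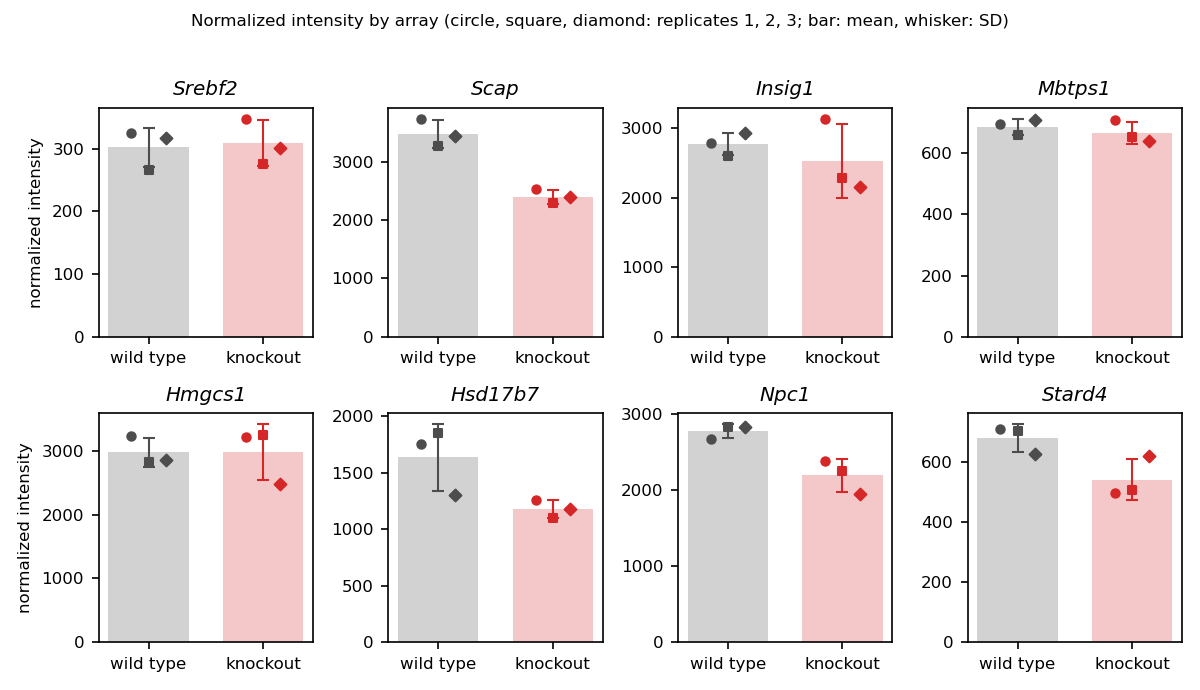
Normalized intensity of the regulators Srebf2, Scap, Insig1 and Mbtps1, the enzymes Hmgcs1 and Hsd17b7 and the carriers Npc1 and Stard4; points are arrays, bars are means and whiskers SD (n = 3). Knockout arrays of Scap sit between 2290 and 2528 and wild type arrays between 3273 and 3747, while Insig1 in knockout replicate 1 (3139) lies above all wild type arrays.

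In the early part of synthesis, from acetyl-CoA to farnesyl diphosphate, 0 of 6 measured enzymes passed the test and their median difference was -0.05. Hmgcs1, which makes HMG-CoA and is a classic SREBP2 target, read 3226, 2827 and 2856 across the wild type arrays and 3215, 3241 and 2477 across the knockout arrays. The knockout arrays spanned the whole wild type range, and the difference was -0.0044 ± 0.12 (95% confidence interval -0.27 to 0.26, adjusted p = 0.995). Idi1, the isomerase of isopentenyl diphosphate, read 133, 121 and 87.5 across the wild type arrays and 110, 143 and 122 across the knockout arrays, a difference of 0.13 ± 0.17 (adjusted p = 0.835). Fdps, which makes farnesyl diphosphate, read 393, 331 and 378 across the wild type arrays and 445, 329 and 269 across the knockout arrays, with the highest and the lowest value both in the knockout (-0.10 ± 0.18, adjusted p = 0.897). The kinases Mvk and Pmvk, which phosphorylate mevalonate and its phosphate, had differences of -0.20 and 0.12. The decarboxylase Mvd, which acts after them, had -0.25 ± 0.14 (adjusted p = 0.485) with all arrays and -0.35 (adjusted p = 0.045) without knockout replicate 1. Ggps1, on the branch to geranylgeranyl diphosphate used in protein prenylation, had -0.17 ± 0.21 (adjusted p = 0.818).

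From farnesyl diphosphate to cholesterol, 0 of 10 measured enzymes passed the test and the median difference was -0.12. Fdft1, the squalene synthase, and Lss, which closes the rings to lanosterol, had differences of -0.10 and -0.11. Sqle, the squalene epoxidase and a rate-limiting step of this part, read 1640, 1498 and 1456 across the wild type arrays and 1833, 1558 and 1443 across the knockout arrays, a difference of 0.07 ± 0.11 (adjusted p = 0.886). Knockout replicate 1 was again the highest array, and the groups overlapped.

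Of the enzymes that take methyl groups off lanosterol, 4 were measured and none passed the test. Cyp51, the demethylase that opens this stretch, read 1631, 1776 and 1754 across the wild type arrays and 1396, 1688 and 1325 across the knockout arrays. The groups overlapped, and the difference was -0.23 ± 0.11 (adjusted p = 0.391). Msmo1, Nsdhl and Hsd17b7 together remove the methyl groups at carbon 4. Msmo1, the oxidase, read 2554, 2518 and 2488 across the wild type arrays and 2070, 2313 and 1929 across the knockout arrays, groups that did not overlap, with -0.26 ± 0.09 (adjusted p = 0.178). Nsdhl, the decarboxylating dehydrogenase, had -0.20 ± 0.10 (adjusted p = 0.393). Hsd17b7, the ketoreductase, read 1751, 1850 and 1300 across the wild type arrays and 1255, 1101 and 1177 across the knockout arrays. The groups did not overlap, although wild type replicate 3 lay close to the knockout arrays, and the difference was -0.45 ± 0.14 (adjusted p = 0.130). Without knockout replicate 1 the difference of Hsd17b7 was -0.50 (adjusted p = 0.025). These 4 enzymes were below 0 in every setting tried, as were 13 of the 26 measured members in all, among them Mvk, Fdft1, Dhcr7 and Mvd. The 4 had a median of -0.25, and Mvd, outside them, lay at a similar value. The stretch was singled out after its values had been seen.

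The measured enzymes that finish the molecule had a median difference of 0.02. Ebp, the sterol isomerase, had a difference of 0.02 ± 0.10 (adjusted p = 0.963) and Dhcr7, which makes cholesterol in the last reduction, had -0.13 ± 0.12 (adjusted p = 0.724). Sc5d, the desaturase between them, read 5685, 5469 and 5652 across the wild type arrays and 5782, 5894 and 5931 across the knockout arrays. Its groups did not overlap, and the difference was small, 0.07 ± 0.06 (adjusted p = 0.692).

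**Figure D3:**
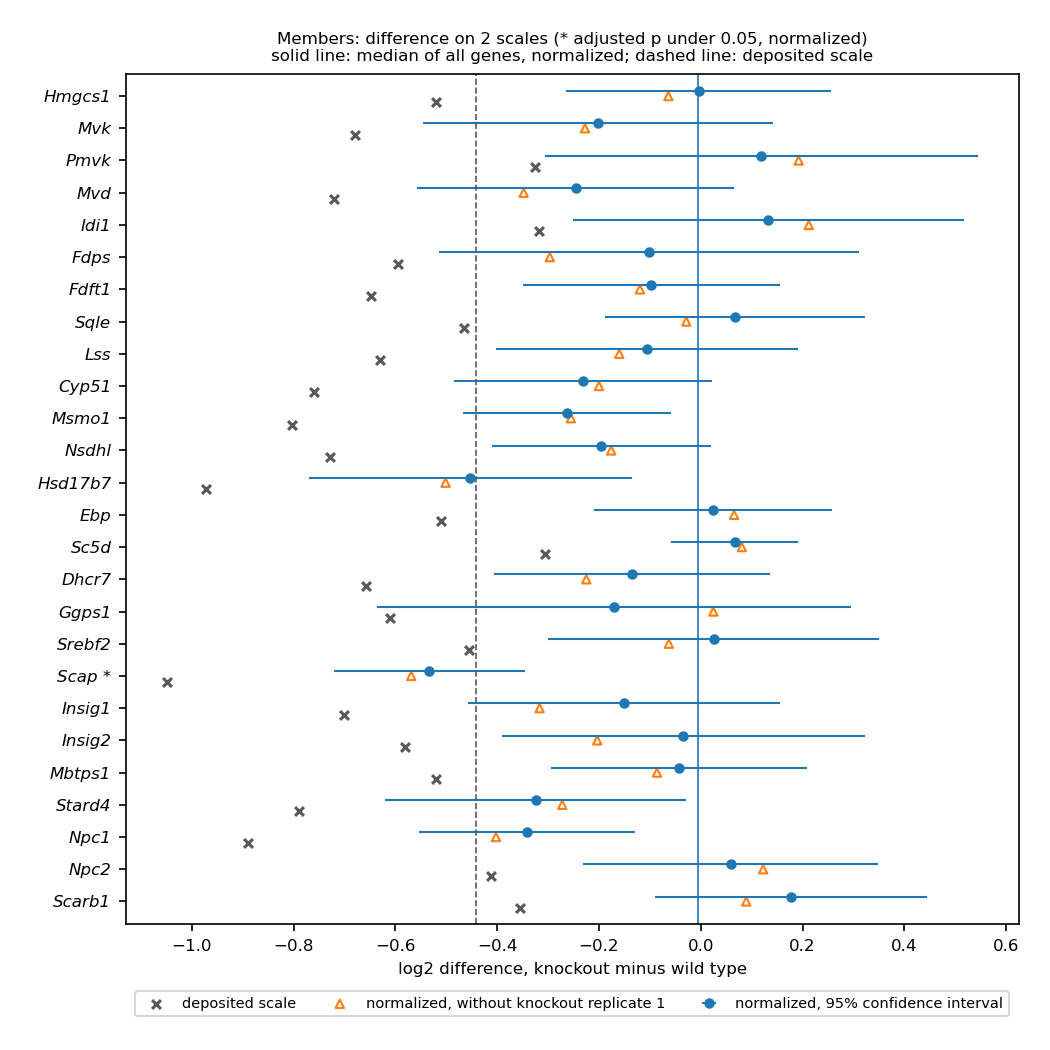
Log2 difference, knockout minus wild type, of the 26 measured members; circles with bars are normalized values with 95% confidence intervals, triangles leave out knockout replicate 1, and crosses are on the deposited scale. Scap (-0.53) is marked as past the threshold, all crosses lie below 0, and the dashed line at -0.44 is where the median gene lies on that scale.

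Among the carriers none passed the test with all arrays. Npc1, the lysosomal membrane protein that hands cholesterol from taken-up lipoproteins to the cell, read 2670, 2831 and 2824 across the wild type arrays and 2381, 2247 and 1953 across the knockout arrays. The groups did not overlap, and the difference was -0.34 ± 0.09 (95% confidence interval -0.55 to -0.13, adjusted p = 0.087). Without knockout replicate 1 it was -0.40 (adjusted p = 0.0074). Npc2, its soluble partner in the lysosome, read 647, 577 and 602 across the wild type arrays and 580, 726 and 605 across the knockout arrays, a difference of 0.06 ± 0.13 (adjusted p = 0.919).

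Stard4, a cytosolic sterol carrier and SREBP2 target, read 711, 702 and 628 across the wild type arrays and 498, 508 and 620 across the knockout arrays. The highest knockout array lay just below the lowest wild type array, and the difference was -0.32 ± 0.13 (adjusted p = 0.268). Scarb1, the receptor that takes cholesterol from HDL, read 1348, 1447 and 1606 across the wild type arrays and 1873, 1651 and 1469 across the knockout arrays, overlapping groups with a difference of 0.18 ± 0.12 (adjusted p = 0.586). It had the highest difference of all measured members.

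Groups that did not overlap were seen for 6 members, Scap, Npc1, Hsd17b7, Msmo1, Stard4 and Sc5d, of which 5 were lower in the knockout, where 21.7% of all genes did not overlap and 10.1% did so with lower values. Without knockout replicate 1, 5 members fell, namely Scap, Npc1, Hsd17b7, Insig1 and Mvd, and none rose; in that comparison 5.37% of all genes fell and 9.71% rose. The sample titles hold a leading number that runs in separate ranges for the groups with all arrays and a further number that does so once that array is left out; their meaning is not stated.

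The arrays of a group differed among themselves in the level of the pathway. In wild type replicate 1, 24 of the 26 members lay above their own mean over the 6 arrays, and in knockout replicate 3 only 5 did. The other arrays lay between these, with 10 and 15 members above for wild type replicates 2 and 3, and 12 and 13 for the remaining knockout arrays. The median of the members was -0.01 without knockout replicate 3 and -0.04 without wild type replicate 1, beside -0.10 with all arrays.

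The scale decided where the median of the members lay and how many passed, and it moved other genes along with them. On the deposited scale all 26 members were lower in the knockout, with a median of -0.62, but 93.4% of all genes were lower there too, with a median of -0.44. Genes of similar brightness, the 1931 genes within the middle range of the members' mean levels, had a median of -0.50 on that scale. After normalization they had 0.00, beside -0.10 for the members. On the deposited scale 6 members passed the test as lower, Scap, Hsd17b7, Npc1, Msmo1, Stard4 and Cyp51, beside 6.86% of all genes. With the arrays centred on their medians 0 members passed, beside 1.10% of all genes that passed as lower. The median of the members was -0.30 there, beside -0.12 over all genes and -0.18 over the genes of similar brightness.

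Sequences upstream of 3 members are shown because they represent the regulator that fell (Scap), the enzyme with the lowest difference (Hsd17b7) and a classic SREBP2 target whose groups were interleaved (Hmgcs1). RefSeq windows of 300 bases, from 250 before to 50 after the transcription start (build GRCm38.p6; the array annotation is of another build), matched 24 of the 31 members. Capitals mark matches, on either strand, to a sterol regulatory element written TCACNCCAC, to the CCAAT box of NF-Y, a common partner of SREBP2, which reads ATTGG on the other strand, and to the E-box CACGTG; no matches overlapped in these windows.
Scap, chr9:110333038-110333337, plus strand: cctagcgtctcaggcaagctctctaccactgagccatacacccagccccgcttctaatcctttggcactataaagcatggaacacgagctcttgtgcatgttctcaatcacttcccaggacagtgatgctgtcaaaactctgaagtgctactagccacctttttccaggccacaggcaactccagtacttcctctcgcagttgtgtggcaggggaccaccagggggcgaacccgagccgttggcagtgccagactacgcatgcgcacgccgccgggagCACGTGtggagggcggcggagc
Hsd17b7, chr1:169969156-169969455, minus strand: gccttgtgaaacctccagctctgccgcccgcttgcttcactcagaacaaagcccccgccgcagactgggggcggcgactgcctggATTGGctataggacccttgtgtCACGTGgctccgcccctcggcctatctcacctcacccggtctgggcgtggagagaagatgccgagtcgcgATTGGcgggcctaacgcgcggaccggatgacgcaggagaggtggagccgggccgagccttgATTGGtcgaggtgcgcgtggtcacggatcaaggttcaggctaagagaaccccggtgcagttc
Hmgcs1, chr13:119690101-119690400, plus strand: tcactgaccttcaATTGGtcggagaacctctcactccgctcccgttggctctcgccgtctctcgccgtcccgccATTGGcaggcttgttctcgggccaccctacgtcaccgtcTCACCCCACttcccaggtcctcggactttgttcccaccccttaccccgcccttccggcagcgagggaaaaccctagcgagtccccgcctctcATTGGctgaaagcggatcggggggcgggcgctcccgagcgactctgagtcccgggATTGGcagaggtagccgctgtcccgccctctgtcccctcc

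A CCAAT box was present in a window of 20 of the 24 matched members, 83.3%, beside 41.1% of the 27025 genes with a window. The members without it were Acat2, Mbtps1, Mbtps2 and Scap. The sterol regulatory element in this strict form was found for 1 of the 24, Hmgcs1, and for 1.44% of all genes, and the E-box for 5 of the 24 and 8.09% of all genes. Scap, the member that fell, carried neither a CCAAT box nor this form of the sterol element in its windows. The same held for Mbtps1, which had a difference of -0.04. Hsd17b7, with -0.45, carried 3 CCAAT boxes, and Hmgcs1, whose groups were interleaved, carried 4 and 1 sterol element. Whether these motifs go with the differences was not tested. A match is a description of these letters and not a binding site.

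Genes next to the pathway were described from 6 lists, with 4.17% of all genes past the threshold in either direction. None of 19 further enzymes and paralogs of the pathway passed, with a median of -0.02; the lowest p-values were those of Acat1, a mitochondrial thiolase (-0.38 ± 0.11, adjusted p = 0.0996), and Rabggtb, a subunit of the prenyltransferase of Rab proteins (-0.41 ± 0.12, adjusted p = 0.107). Both passed as lower without knockout replicate 1, at -0.26 and -0.37 (adjusted p = 0.033 and 0.022), and on the deposited scale. Pggt1b, a prenyltransferase subunit named after its values were seen, rose without that array, at 0.40 (adjusted p = 0.028), and had 0.20 (adjusted p = 0.706) with all arrays. Of 18 genes of SREBP regulation and quality control in the endoplasmic reticulum 1 rose and none fell. This was Rnf145, a ubiquitin ligase of that membrane with SCAP among its reported substrates, which read 277 ± 43.8 (SD, n = 3) in wild type arrays and 545 ± 25.6 in knockout arrays (0.95 ± 0.15, adjusted p = 0.0074). On the deposited scale its difference was 0.49 (adjusted p = 0.189). Lmna (0.55 ± 0.13, adjusted p = 0.051) and Erlin1 (0.40 ± 0.12, adjusted p = 0.105), a scaffold of the endoplasmic reticulum membrane, did not pass with all arrays. Without knockout replicate 1 both passed, Lmna at 0.62 (adjusted p = 0.0045) and Erlin1 at 0.43 (adjusted p = 0.015). That makes 3 of this list higher, beside 9.71% of all genes in that comparison.

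Of 21 further genes of sterol uptake, transport and storage 3 rose and 2 fell. The genes that fell were Abcg8 and Abcg5, which form the exporter of sterols into bile. Gramd1b, a sterol carrier between membranes, rose by 1.22 ± 0.17 (adjusted p = 0.0050) from a dim 31.8 ± 5.14 (SD, n = 3), the exporter Abcg1 rose by 0.79 ± 0.17 (adjusted p = 0.032), and Tmem97, a sterol-regulated protein that binds NPC1, rose by 0.49 ± 0.10 (adjusted p = 0.024). These 3 increases did not pass on the deposited scale (0.82, 0.34 and -0.04; adjusted p = 0.057, 0.335 and 0.909), where Tmem97 turned in sign. Without knockout replicate 1, 4 genes of this list rose and 3 fell, beside 9.71% and 5.37% of all genes. Nceh1 and Scp2 are named after their values were seen. Nceh1 had -0.84 ± 0.22 (adjusted p = 0.077) with all arrays. It passed as lower on the deposited scale, at -1.30 (adjusted p = 4.0e-05), and without that array, at -0.54 (adjusted p = 0.0012). Scp2 had 0.25 (adjusted p = 0.275), and 0.35 (adjusted p = 0.0082) without it. Of 9 measured LXR genes, receptors for oxysterols and their targets, the same Abcg8 and Abcg5 fell and Abcg1 rose.

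Of 18 genes of SREBP1c and lipogenesis 3 fell and none rose, with a median of -0.20. Thrsp, a lipogenic factor, was 1 of them. Lpin1, a phosphatidate phosphatase and SREBP target, fell by 1.27 on the log2 scale (adjusted p = 0.016), and Aacs, which activates acetoacetate for lipid synthesis, fell by 0.95 (adjusted p = 0.035). Of 14 genes of oxysterol and bile acid synthesis 4 fell and none rose. These were Cyp27a1, Cyp8b1 and Cyp7b1, hydroxylases of bile acid synthesis, and the bile acid ligase Slc27a5. Cyp7a1, the rate-limiting hydroxylase of bile acid synthesis, named here after its values were seen, had the opposite sign and overlapping groups (1.35 ± 0.48, adjusted p = 0.192). It passed as higher on the deposited scale, at 0.89 (adjusted p = 0.011), and without knockout replicate 1, at 1.96 (adjusted p = 0.00043). On the deposited scale 8 of the lipogenic genes, 5 of the LXR genes and 6 of the bile acid genes passed as lower, beside 6.86% of all genes. Without knockout replicate 1 the counts were 5, 3 and 5, beside 5.37% of all genes. As higher passed 0, 0 and 1 on the deposited scale, beside 178 of 19123 genes. Without that array 0, 1 and 1 passed as higher, beside 9.71% of all genes. The differences in these lists stand beside a range of -0.53 to 0.18 over the members themselves; whether the lists differ from the members was not tested.

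**Figure D4:**
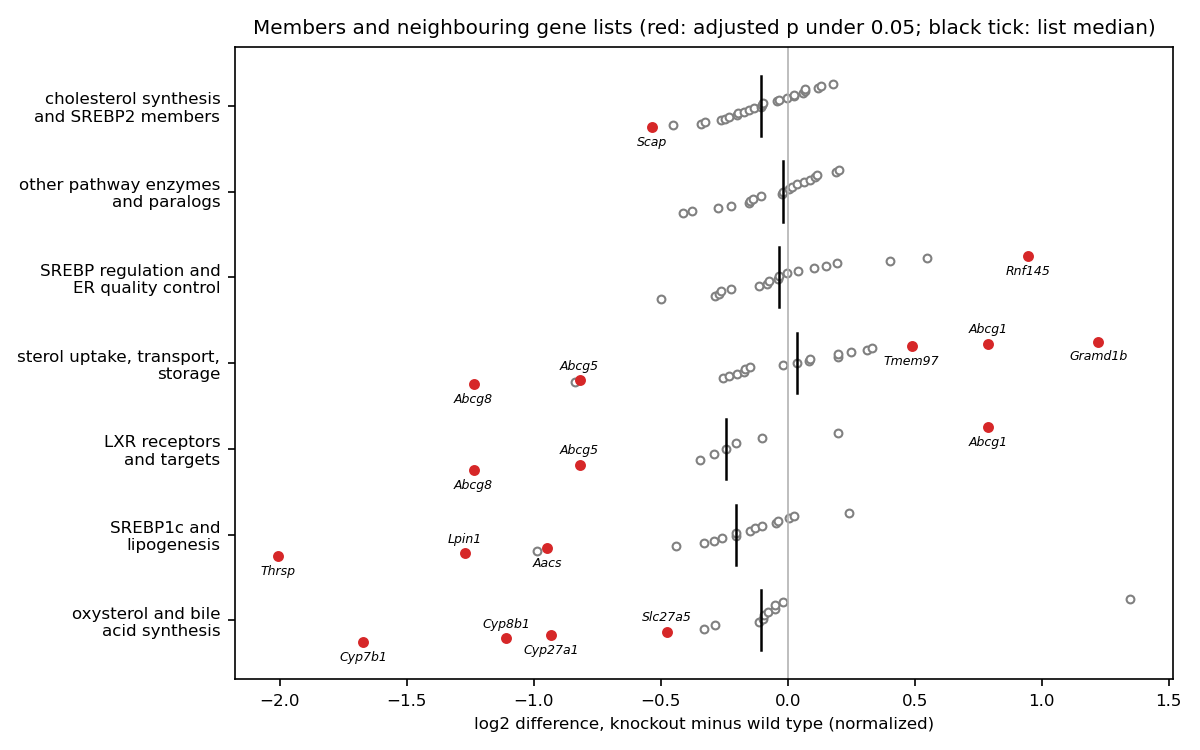
Normalized log2 differences, knockout minus wild type, of the 26 measured members and of 6 neighbouring gene lists; each point is a gene, red points passed an adjusted p of 0.05 and are named, and black ticks are medians. The members lie between -0.53 and 0.18, with 1 red point, while the lower rows reach to -2.01.

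Markers of liver cell types were read beside the 4.17% of all genes that passed in either direction. Of 12 measured hepatocyte markers 1 fell, Alb, by 0.39 on the log2 scale, and their summed normalized level was 88766 to 91077 in wild type and 82326 to 86627 in the knockout. Of 14 macrophage markers 3 rose, Cybb, Cd68 and Ctss, and the sum went from 977 to 1519 in wild type to 2457 to 3308 in the knockout; none of the 11 stellate cell and matrix markers passed, with sums of 1810 to 2131 and 2470 to 3533. None of the 9 endothelial, 4 biliary, 4 lymphocyte or 2 erythroid markers measured passed. Without knockout replicate 1, 7 macrophage and 4 stellate cell and matrix markers rose, beside 9.71% of all genes in that comparison. The part of such cells in the values of Scap and the other members was not tested, and fewer cells of a type and less RNA per cell cannot be told apart in these samples.

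Besides the rows used, 6 members had 9 dimmer rows, of which 5 passed the filter on low values. A dimmer Srebf2 row read 79.7, 116 and 62.2 across the wild type arrays and 44.1, 42.9 and 48.4 across the knockout arrays on the deposited scale. The groups did not overlap on that scale, where 93.4% of all genes were lower. Its normalized difference was -0.29, where the brightest row had 0.03. Dimmer rows of Fdps and Fdft1 that passed had differences of -0.19 for Fdps and 0.14 and -0.23 for Fdft1, and that of Sqle had 0.00. Scap had a single row.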

How the data were processed

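The samples were total RNA from hepatocytes, 3 wild type and 3 knockout, grouped by the genotype in the labels, with replicate numbers that only name arrays. The authors deposited intensity values on a linear scale, made with PLIER and with mm9 as genome build, per the submitters' processing notes; no source used here names a version, a background step or a scaling.

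Of 238609 rows, 24343 carry 1 gene symbol in the platform annotation (20261 genes), 1797 several and 212469 none. All rows were quantile-normalized between arrays, transformed as log2(intensity + 16), and filtered at the 40th percentile of mean log2 level (5.19). The brightest row of each gene gave 19130 genes. The groups were compared by limma's moderated test (version 3.58.1, under R 4.3.3) with an intensity trend in the variances; p-values were adjusted by Benjamini-Hochberg and called under 0.05. The pipeline was checked on simulated data with known answers. The simulated differences were larger than that of any member, and no array had more noise than the others. The check therefore does not show what would be detected at the sizes seen for the members. The number of arrays limits the precision.

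Members and lists were chosen with earlier results of these data known. Named with values per array were, by rule, Srsf1, the members past the threshold, the regulators and 5 synthesis enzymes; of each other list up to 4 genes by p-value. Members named beyond the rule were chosen after their values were seen. Exon usage was not analysed here.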

Additional observations from a re-analysis of the deposited data

How the results depend on the processing

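Scap was lower under all 17 alternatives and passed the threshold under 14, with adjusted p from 0.00012 to 0.329; no member passed as higher under any. The members that passed as lower, 1 as reported, numbered 6 on the deposited scale and with array quality weights, 0 with median centring or without an intensity trend, and 0 to 5 with an array left out. Over all genes 797 passed, 525 higher and 272 lower; 1489 passed on the deposited scale (178 higher, 1311 lower), 550 with median centring (340 higher, 210 lower), 3315 with weights, and 309 to 2884 with an array left out. The members' median of -0.10 became -0.62, -0.30 and -0.23 on the deposited scale, with median centring and with weights, and -0.17 to -0.0092 with an array left out.

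The sign held in every setting for 13 members. Members that did not pass turned in sign as follows. On the deposited scale Pmvk was -0.33, Idi1 -0.32, Sqle -0.47, Ebp -0.51, Sc5d -0.31, Srebf2 -0.46, Npc2 -0.41 and Scarb1 -0.36. With median centring Pmvk was -0.0059, Sqle -0.15, Ebp -0.19, Srebf2 -0.14, Npc2 -0.091 and Scarb1 -0.035. With weights Ggps1 was 0.0034, Sqle -0.060 and Srebf2 -0.032; with the median of a gene's rows Srebf2 was -0.13; with quantile normalization over the tested genes alone, added after seeing the data, Hmgcs1 was 0.034. With an array left out the ranges were -0.072 to 0.12 for Hmgcs1, -0.035 to 0.27 for Pmvk, -0.022 to 0.24 for Idi1, -0.30 to 0.059 for Fdps, -0.33 to 0.025 for Ggps1, -0.028 to 0.14 for Sqle, -0.17 to 0.014 for Lss, -0.058 to 0.087 for Ebp, -0.063 to 0.098 for Srebf2, -0.20 to 0.087 for Insig2 and -0.037 to 0.12 for Npc2. The cause was not tested. No paired analysis was possible because the labels give the groups no shared replicate numbers.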
